A study of Mus musculus with 10 samples.

Results

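The Nduf genes encode the nuclear subunits of mitochondrial complex I, and the genes with the prefix Ndufaf encode proteins that help to assemble it. They were taken as every row whose gene symbol starts with Nduf, which gave 44 of the 13091 genes in the tables. Of these rows, 37 were subunits (14 Ndufa including Ndufab1, 10 Ndufb, 2 Ndufc, 8 Ndufs and 3 Ndufv) and 7 were Ndufaf assembly factors. The cells were neutrophils differentiated in culture from clonal bone marrow progenitors of mice with the strain label 129-SVEV. The progenitors divide while HoxB8, fused to the estrogen receptor, is active, and they mature once estrogen is withdrawn. Polyadenylated RNA was sequenced from 2 Vim+/+ and 3 Vim-/- biological replicates, each unstimulated or treated with 25 ng/mL of lipopolysaccharide (LPS) for 1 hour, which gave 10 libraries. The groups were thus Vim+/+ unstimulated (2 libraries), Vim+/+ LPS (2 libraries), Vim-/- unstimulated (3 libraries) and Vim-/- LPS (3 libraries), and all of them carried the HoxB8 transgene. The sample labels call the Vim-/- cells a vimentin knockdown, whereas the study's methods derive them from knockout mice. The labels do not say whether each replicate was a different clone.

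Complex I accepts electrons from NADH, passes them along a chain of iron-sulfur clusters in its matrix arm to ubiquinone, and uses the energy to pump protons through its membrane arm. The conserved core that does this chemistry is split between nuclear genes for the matrix arm and mitochondrial ND genes for the membrane arm, and the many accessory subunits surround and hold the core. Neutrophils are known for their reliance on glycolysis, and complex I is one of the sites where mitochondria produce superoxide.

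The level of each gene was the authors' mean normalized count, which was the same in all 4 tables. It was taken to be a mean over the 10 libraries, although no library is named with it. The Vim+/+ replicates are labelled 1 and 3, and whether a further Vim+/+ replicate entered the mean is unknown. This mean carries no value for a single library, so no spread between replicates could be given, no genotype or LPS comparison of the Nduf genes was made, and the order of any pair of genes was not tested. The depth of each library was likewise unknown, and the loss of vimentin could not be checked library by library. To compare genes with each other, the mean was divided by the length of the longest annotated transcript (GENCODE M21) in kb. Because libraries came from whole cultures, fewer cells of a type and less RNA per cell cannot be told apart.

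The labelled cell type was checked against marker genes by their mean normalized counts. All 12 neutrophil markers were in the tables, from Ly6g at 11373 to S100a9 at 1290830, and together they reached 4325248. All 6 progenitor markers were also present, from Kit at 1075 to Mpo at 121760. Markers of eosinophils reached 415694 in all (3 of 3, with Prg2 at 268319 and Epx at 142776), those of mast cells or basophils 29099 (2 of 3, with Cpa3 at 26296) and those of macrophages 13432 (3 of 6). Cd79a at 83.8 and Cd3d at 250.3 were the only listed markers of B and T cells in the tables, 1 of 3 for each type, and Gata1 at 1503 was the only one of 3 for erythroid cells. The part of these other cell types in the levels of the Nduf genes was not tested.

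Sequence in the promoters was examined first, because regulators of mitochondrial genes such as NRF1 and YY1 recognise short DNA motifs. RefSeq (GRCm38.p6) gave 41 windows of 300 bases, from 250 before to 50 after the start, for 39 of the 44 genes, since Ndufa5 and Ndufa7 have a pair of overlapping windows each. Ndufa2, Ndufb9, Ndufs1 and Ndufaf6 were among those not matched. The letters of the NRF1 motif were found in 3 member windows. These sites are shown with the 10 letters that were searched in capitals, 5′ to 3′ on the strand of the gene.
Ndufa11, chr17:56717692-56717721 (+): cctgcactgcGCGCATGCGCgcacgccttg
Ndufaf4, chr4:24897960-24897989 (+): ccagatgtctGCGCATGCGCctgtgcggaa
Ndufaf5, chr2:140170652-140170681 (+): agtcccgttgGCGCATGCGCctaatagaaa
With position 0 at the RefSeq start around which each window was cut, which can differ from the outer bounds of the gene in GENCODE given with the levels, the motif began at -60 in Ndufa11, at -113 in Ndufaf4 and at 16 in Ndufaf5. The 3 windows were 7.32% of the member windows, whereas the letters were in 1.98% of the 13010 windows of genes in the tables and in 0.971% of all 32851 windows. Of the 3 genes, 2 were assembly factors, out of 6 assembly factor windows.

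The letters AAGATGGC, a core of the YY1 motif, were found in 7 windows, all of them of subunits. The sites are shown because they share a position as well as letters, and the motif is again in capitals.
Ndufa3, chr7:3617385-3617412 (+): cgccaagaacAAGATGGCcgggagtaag
Ndufa9, chr6:126849098-126849125 (-): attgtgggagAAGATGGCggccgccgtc
Ndufb8, chr19:44555393-44555414 (-): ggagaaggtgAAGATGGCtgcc
Ndufc1, chr3:51408916-51408943 (-): cctgcggaacAAGATGGCgccgtccgta
Ndufs4, chr13:114388045-114388069 (-): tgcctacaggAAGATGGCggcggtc
Ndufs6, chr13:73328433-73328459 (-): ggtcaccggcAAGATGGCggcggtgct
Ndufs7, chr10:80249463-80249490 (+): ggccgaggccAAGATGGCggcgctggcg
In all 7, the motif lay on the strand of the gene and began between 22 and 38 bases after the RefSeq start, and the ATG within it was the annotated start codon. The printed sites therefore run from the 5′ untranslated region into the coding sequence. These windows made up 17.1% of the member windows, against 4.48% (583) of the windows of genes in the tables and 2.75% (903) of all windows. Where genes in the tables held the letters, 41.7% (243 of 583) had them on the strand of the gene after the start. Among all windows with the letters, 30.6% (276 of 903) did.

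For the other 7 motifs searched, the share among members was at most 2.40 times that of genes in the tables (CREB), against 3.70 times for NRF1 and 3.81 times for YY1, and 4 of them were less frequent among members. The letters of SP1 (GGGCGG) were in 51.2% of member windows against 59.0% of those of genes in the tables, the CCAAT box (CCAAT) in 31.7% against 37.9%, the ETS family motif (CCGGAAG) in 12.2% against 17.1%, and the E-box of USF and MYC (CACGTG) in 7.32% against 9.85%. The CREB motif (TGACGTCA) was in 7.32% against 3.04%, the TATA box (TATAAA) in 12.2% against 7.45%, and the ERR motif (CAAGGTCA) in 1 member window, that of Ndufs5, or 2.44% against 1.06%. The overlapping Ndufa7 windows hold the same TATA box and E-box letters, and those of Ndufa5 the same SP1 letters, each counted in both windows. The TATA box letters of Ndufa7 and Ndufb7 lay on the opposite strand, and those of Ndufa3 and Ndufs7 began at -166 and -99. All motifs were searched on both strands, and in the member windows matches to different motifs overlapped only in Ndufs3 (ETS family and SP1). Members and genes in the tables had similar base composition, with a median GC content of 59.3% against 60.0% and a median of 20.0 against 19.0 CpG dinucleotides per window. These shares describe letters in the windows, with no test, and binding of the factors was not measured.

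**Figure D1:**
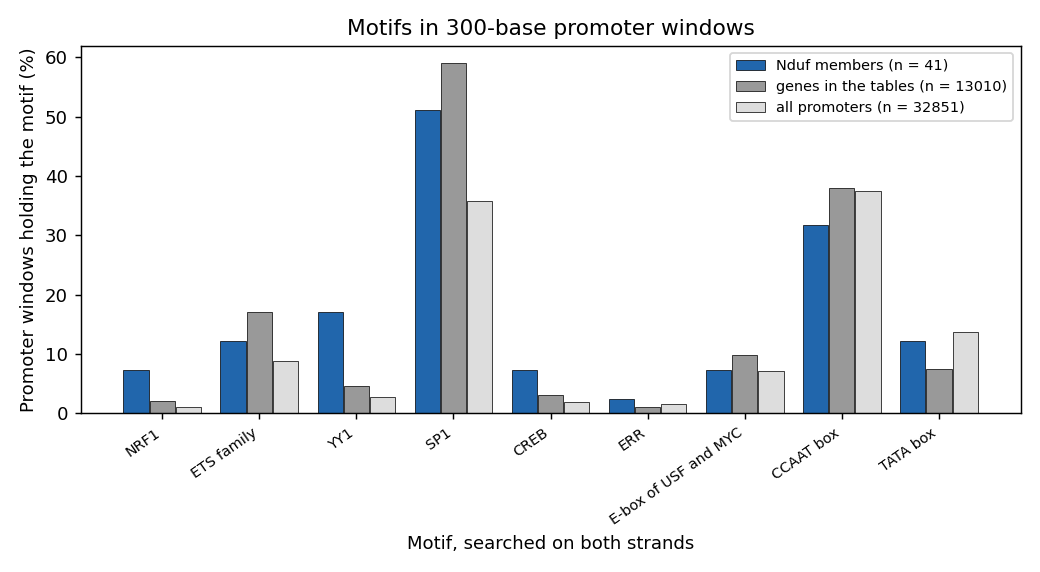
Share of 300-base promoter windows (in percent) that hold the letters of each of 9 motifs, for the 41 Nduf windows, the 13010 windows of genes in the tables and all 32851 windows. The Nduf bar stands at 17.1% for YY1, where the bar of genes in the tables stands at 4.48%, and below that bar for SP1, the CCAAT box, the ETS family and the E-box.

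The subunits of complex I stood high among all genes, and their assembly factors stood below them. The median subunit had a mean normalized count of 3122 and a level of 2175 per kb, where the median of all genes was 907 and 309 per kb. Of the 37 subunits, 36 (97.3%) lay above the median of all genes per kb, and the median subunit was at percentile 86.4. The exception was Ndufb2, a subunit of the distal membrane arm, at 151 per kb. The median assembly factor had a mean normalized count of 212 and a level of 120.5 per kb, at percentile 32.2, and 2 of 7 (28.6%) lay above the median of all genes. With the principal transcript the median assembly factor was at percentile 48.0, near the middle of all genes. The median subunit was thus 18.1 times the median assembly factor per kb, and between 11.0 and 19.0 times it under the 6 other treatments of length and membership that were tried. The 44 genes together held 0.225% of the summed means of all genes, 124635 of 55507688.

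**Figure D2:**
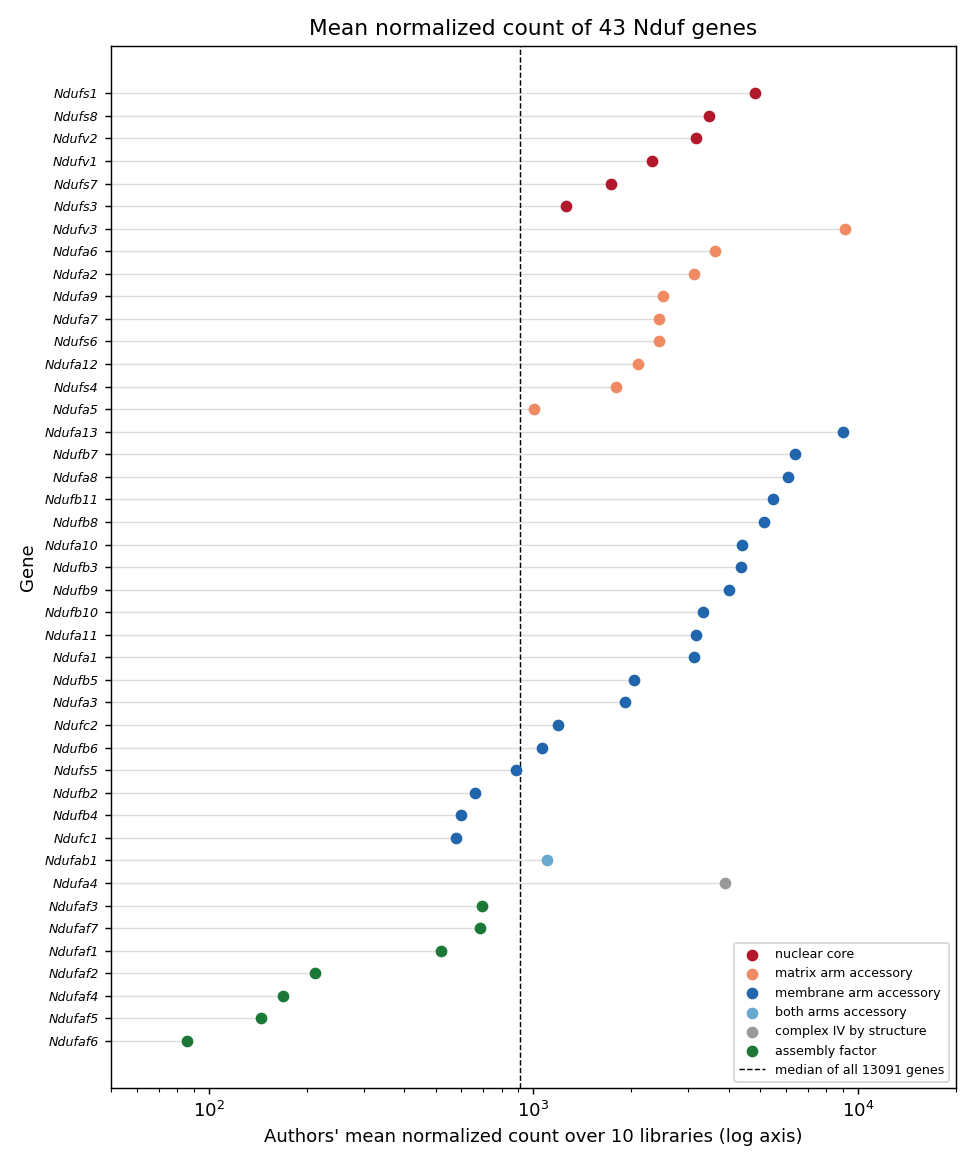
Authors' mean normalized count, taken to be over 10 libraries (log axis), of 43 Nduf genes, with 1 point per gene, ordered within roles, and the median of all 13091 genes (907) as a dashed line. The 6 nuclear core subunits plotted and all 9 matrix arm accessory subunits stand to the right of the line, 4 membrane arm subunits (Ndufs5, Ndufb2, Ndufb4 and Ndufc1) stand to its left, and so do all 7 assembly factors.

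The 7 nuclear core subunits, which carry the flavin and the iron-sulfur clusters or form the ubiquinone site, all lay above the median of all genes. Their median was 1805 per kb, and the lowest was Ndufs3 at 1204. Electrons enter at Ndufv1 (chr19:4007384-4012806), which binds NADH and the flavin and had a mean normalized count of 2321, or 1397 per kb. Its partner Ndufv2 (chr17:66078638-66101559), which holds an iron-sulfur cluster, had a mean normalized count of 3175, or 1871 per kb. Ndufs1 (chr1:63143596-63176833), the largest subunit, with several clusters, had 4804, or 1805 per kb.
These 3 genes form the NADH-oxidising tip of the arm, and their levels lay within a factor of 1.34 of each other per kb of the longest transcript, but ran from 1667 (Ndufv1) to 4267 (Ndufv2) per kb of coding length.
Ndufs8 (chr19:3908863-3912774), which carries the next clusters of the chain, had a mean normalized count of 3476, or 3459 per kb. Ndufs7 (chr10:80249121-80256794), which holds the last cluster, had 1739, or 1769 per kb. Ndufs3 (chr2:90894634-90904827), which has no cofactor, had 1260, or 1204 per kb, the lowest of the core genes on both scales.

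The 9 accessory subunits of the matrix arm had a median of 3187 per kb, and all lay above the median of all genes. The highest per kb was Ndufa2 (chr18:36742332-36744557), which has a thioredoxin-like fold, at 5473, and the lowest was Ndufs4 (chr13:114287795-114388258), whose loss causes a Leigh-like encephalopathy in mice, at 1062. Ndufv3 (chr17:31520115-31531331) had the highest mean normalized count of all 44 genes, 9100, or 4503 per kb. Ndufa7, Ndufs6 (a zinc-binding subunit) and Ndufa6 (a partner of the acyl carrier protein) lay between 3187 and 3821 per kb. Ndufa9, which binds a nicotinamide nucleotide near the junction of the arms, had 1731 per kb, Ndufa12 1520 and Ndufa5 1149.

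The 19 accessory subunits of the membrane arm had the widest range. Ndufa1 (chrX:37187588-37191163), Ndufa13 (chr8:69894180-69902558) and Ndufa8 (chr2:36036326-36049406) were the 3 highest subunits per kb, at 7450, 7215 and 7059, with mean normalized counts of 3122, 9026 and 6078. Ndufa1 and Ndufa13 each cross the inner membrane near the junction with the matrix arm, and Ndufa8 faces the intermembrane space. Ndufb11, Ndufb3, Ndufb9, Ndufb10 and Ndufa11 followed, between 3448 and 6042 per kb. Ndufa3, Ndufb8, Ndufa10, Ndufc2, Ndufb6, Ndufb7 and Ndufs5 lay between 1299 and 2459 per kb, and Ndufb5 and Ndufb4 at 655 and 617.
At the low end, Ndufc1 (chr3:51404677-51408988) had a mean normalized count of 579, the lowest of the subunits, and 464 per kb, while Ndufb2 (chr6:39592574-39603382) had 659 and 151 per kb. The highest subunit was thus 49.4 times the lowest per kb.
Outside both arms' own lists, Ndufab1 (chr7:122085403-122101886), the mitochondrial acyl carrier protein that also serves fatty acid synthesis, had a mean normalized count of 1105, or 318 per kb. Ndufa4 (chr6:11900292-11907497), which structural work has assigned to complex IV, had 3907, or 3171 per kb.

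By symbol, Ndufa genes had a median of 3179 per kb and ran from Ndufab1 to Ndufa1. The median of Ndufb genes was 2007 per kb, from Ndufb2 to Ndufb11, that of Ndufs genes 1787, with Ndufs4 the lowest, and that of the 3 Ndufv genes 1871, from Ndufv1 to Ndufv3. The pair of Ndufc genes had 464 (Ndufc1) and 1748 (Ndufc2) per kb. The order of these medians depended on length, since with the principal transcript Ndufb (5133) was above Ndufa (5053), and without division by length Ndufb (3677) and Ndufv (3175) were above Ndufa (3126).

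The order of the subunits depended on which length was used, and several low values went with long annotated transcripts. For 12 of the 44 genes the longest transcript was not annotated as protein coding. That of Ndufb7, a cysteine-rich subunit of the intermembrane face, has 4435 bases with a retained intron, where its coding sequence has 411. Ndufb7 accordingly moved from 1449 per kb of the longest transcript to 15632 per kb of coding length. Ndufb2 moved from 151 to 2092 per kb, and Ndufab1 from 318 to 2361.
Per kb of coding length, the 3 highest subunits were Ndufa13 (20893), Ndufa4 (15882) and Ndufb7, and the 3 lowest were Ndufv1 (1667), Ndufs3 (1597) and Ndufb4 (1547). The span from highest to lowest narrowed to 13.5-fold.
Per kb of coding length no subunit lay below the highest assembly factor, Ndufaf3 (1254), whereas per kb of the longest transcript 3 did (Ndufc1, Ndufab1 and Ndufb2). Across the 37 subunits, Spearman's rho between mean normalized count and coding length was 0.38 and that with the longest transcript 0.20. These are correlations across genes, which share the 10 libraries and are not independent replicates.
The ratio of the median core subunit to the median accessory subunit was 0.752 per kb of the longest transcript and 0.404 per kb of coding length, but it was above 1 with the shortest protein-coding transcript (1.19) and without division by length (1.27), so these data give no order of core and accessory subunits.

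**Figure D3:**
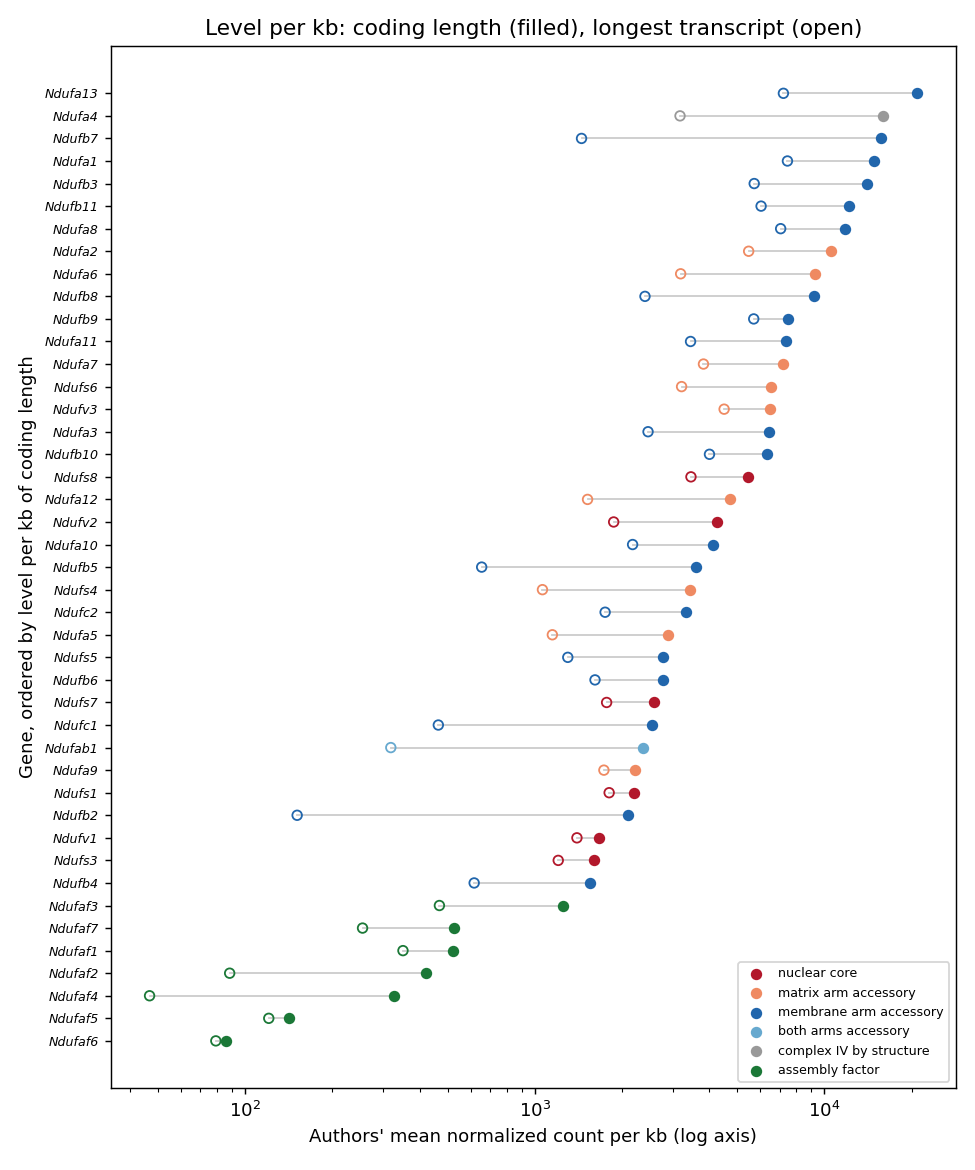
Authors' mean normalized count per kb (log axis) of 43 Nduf genes, divided by coding length (filled) and by the longest transcript (open), with 1 row per gene in order of the filled points. The 7 assembly factors fill the lowest rows by coding length, and the widest gaps between the points of a gene include those of Ndufb2 (151 to 2092) and Ndufb7 (1449 to 15632).

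The 7 assembly factors, which leave the complex before it is complete, were spread from 46.7 to 468 per kb. Ndufaf3 (chr9:108565537-108567434) was the highest, with a mean normalized count of 696 and 468 per kb. Its partner Ndufaf4 (chr4:24898083-24905001), with which it acts on the ubiquinone-binding part of the matrix arm, had 169.5 and was the lowest at 46.7 per kb. Per kb of coding length Ndufaf4 stood at 327 against 1254 for Ndufaf3, and Ndufaf6 was the lowest at 85.6. Ndufaf1 (chr2:119655446-119662827), a member of the complex that builds the membrane arm, had 518, or 350.3 per kb.
Only Ndufaf3 and Ndufaf1 lay above the median of all genes per kb (309).
The enzymes among the factors differed too. Ndufaf7 (chr17:78937136-78948052), an arginine methyltransferase, had 686, or 254 per kb, and Ndufaf5 (chr2:140170649-140203689), an arginine hydroxylase that acts on Ndufs7, had 145, or 120.5 per kb. The latter was below its substrate Ndufs7, which stood at 1769 per kb.
Ndufaf2 (chr13:108002715-108158623), a paralogue of the subunit Ndufa12 that holds its place during assembly, had 212, or 88.3 per kb, against 2106, or 1520 per kb, for Ndufa12. Ndufaf6 (chr4:11051045-11076205) had the lowest mean normalized count of the 44 genes, 85.5, or 79.1 per kb.

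Other genes for complex I lie outside the symbol rule. The 11 other assembly factors listed had a median of 237 per kb, and 4 of them (36.4%) lay above the median of all genes. They ran from Nubpl, which delivers iron-sulfur clusters, at 24.0 per kb to Tmem261, the older symbol of Dmac1, at 1980 per kb. The row 1810043H04Rik, an older name of Ndufaf8, had a mean normalized count of 330.3, or 423 per kb.
The 7 ND genes of the mitochondrial genome fell apart into those with high and those with low mean normalized counts. Mean normalized counts were 64659 for ND5, 64422 for ND1, 41139 for ND2 and 35103 for ND4, above every Nduf gene. They were 402 for ND6, 23 for ND4L and 22 for ND3, below the lowest subunit, Ndufc1. ND4L overlaps ND4 on the mitochondrial genome, so their reads could not be divided with certainty. Whether the low counts of ND6, ND4L and ND3 reflect scarce transcripts, or how these were recovered and counted, was not tested.
Of the 37 nuclear complex I subunits listed, 36 were in the tables, and Ndufb1 was not analysed here.

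The Nduf subunits were also set beside the other nuclear genes of the respiratory chain. The 42 genes of complexes II to V, of which 41 had a length, had a median of 4111 per kb, and the ratio of the median Nduf subunit to it was 0.529. That ratio lay between 0.354 and 0.638 under the 6 other treatments. By complex, the medians per kb were 2818 for complex II, from Sdhc (1528) to Sdhd (3298), and 3097 for complex III, from Cyc1 (2172) to Uqcrh (8596). They were 8588 for complex IV, from Cox6c (1536) to Cox4i1 (24316), and 4206 for complex V, from Atp5g1 (539) to Atp5b (14290). The median Nduf subunit (2175) was below each of them, but with the principal transcript it was 3459 per kb, above complex II at 2936. Of the 41 genes, all lay above the median of all genes.
The 77 mitochondrial ribosomal protein genes, whose products translate the ND mRNAs, had a median of 584 per kb, and 54 of them (70.1%) lay above the median of all genes. The median Nduf subunit was 3.72 times that of the mitochondrial ribosomal proteins, and 2.81 to 5.10 times it under the 6 other treatments. Genes are not replicates, so no test was made of these differences.

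**Figure D4:**
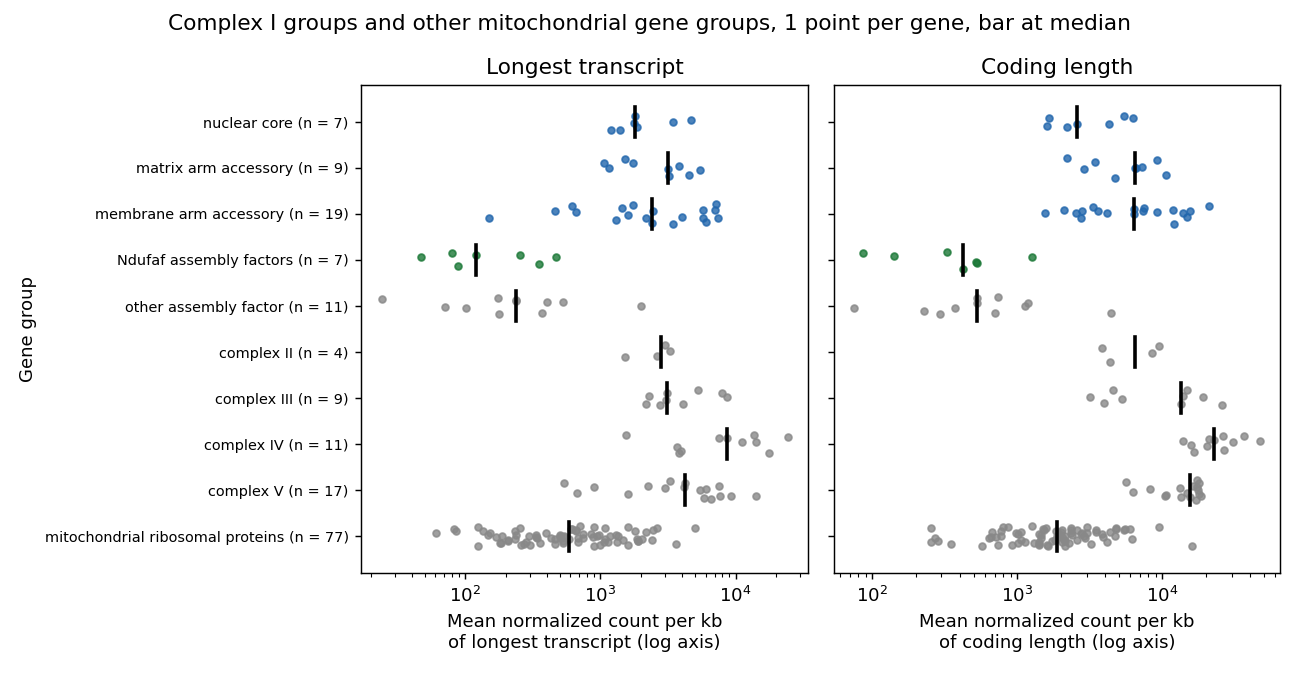
Authors' mean normalized count per kb of the longest transcript (left) and of coding length (right), on log axes, with 1 point per gene and a bar at the median of each group. On both scales the bar of the Ndufaf assembly factors (120.5 and 421) is the lowest, and that of complex IV (8588 and 22730) is the highest.

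Several members share sequence with other genes, which limits how well their reads can be assigned. With a threshold of 95% identity over at least 150 bases, 8 subunits had a processed pseudogene copy, namely Ndufa12, Ndufab1, Ndufb11, Ndufb3, Ndufb4, Ndufs3, Ndufs5 and Ndufs6. The copy of Ndufb4, Ndufb4c on chromosome 15, matched it in every base over 390 bases. The 8 subunits had a median of 1410 per kb, against 2400 for the 29 without a copy, and how much of this comes from reads shared with the copies was not tested. Ndufaf2 and Ndufaf7 shared stretches with 14 and 8 other genes.
In addition, 18 of the 44 genes share exon bases with a neighbour. The largest shares were 65.6% of Ndufaf2 (with the noncoding B230220B15Rik), 39.0% of Ndufb6 (with Smim27) and, for Ndufa13 (with Tssk6), 375 of 1251 bases, all on the opposite strand. Overlaps on the same strand, which strand cannot resolve, were those of Ndufb9 with Gm49356 (201 bases, 19.5%), Ndufb8 with Gm20538 (134 bases) and Ndufb2 with Gm42420 (145 bases). Whether the counting used strand is not given in the sources used here, so the levels of the genes with either kind of overlap are uncertain.

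The 44 genes lay on 16 chromosomes. Chromosome 17 held the most, 6 (Ndufa7, Ndufa11, Ndufb10, Ndufv2, Ndufv3 and Ndufaf7), and Ndufa1 and Ndufb11 lay on X, at 7450 and 6042 per kb, both among the higher subunits.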

How the data were processed

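Per the study's methods, the authors removed adapters and low-quality bases with Cutadapt 4.4, used STAR 2.7.10b for alignment to mm10 and for quantification, and normalized and modelled the counts with RUVSeq covariates and DESeq2 1.26.0. The signal used here is the mean normalized count that the authors deposited for each gene, taken to be over all 10 libraries. The other 9 columns of each of the 4 deposited tables hold the authors' own comparisons (log2 fold changes, their standard errors, Wald statistics, p-values, adjusted p-values and flags) and were not used. The planned count test needed counts per sample, so no test was run. Depth, annotation and strand of counting are not given in the sources used here, and precision is unknown.

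Levels were the means divided by transcript length in kb (GENCODE M21, 12298 genes, 93.9%), computed with Python 3.11.15, numpy 2.4.6, pandas 2.3.3 and scipy 1.17.1, and drawn with matplotlib 3.10.9. Lengths of the ND genes came from RefSeq. Copies were found with BLAST 2.17.0, and motifs with exact matching in RefSeq promoter windows. Scripts were tested on simulated data. For motifs only the NRF1 letters were planted, and these read the same on both strands, so the opposite-strand search was not tested. Named in full are the 3 highest and 3 lowest subunits, the nuclear core, all assembly factors, and the extremes of each symbol group and of complexes II to V. The members and lists were chosen with earlier results of these data known. The values of 1 member are not reported here, although counts and medians include it.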

Additional observations from a re-analysis of the deposited data

How the results depend on the processing

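All 9 results on levels were recomputed under 6 alternatives, and 36 of the 54 values stayed within 1.5-fold (or 10 percentile points) of the reported one, 16 moved further and 2 reversed. Per kb of coding length the median subunit was 5465, the median assembly factor 421, the ratio of core to accessory subunits 0.404 and that of the highest to the lowest subunit 13.5. With the shortest protein-coding transcript these were 5479, 396, 1.19 (reversed) and 29.9. Without division by length the median assembly factor was 212, the percentile of the median subunit 75.4, the ratio of core to accessory subunits 1.27 (reversed) and that of the highest to the lowest 15.7. These 3 settings change by construction the length that each mean is divided by. Without that division the median subunit, 3122, was tallied as unmoved although it is a count and not a level per kb. With a minimum mean of 100, which leaves out Ndufaf6, the median of the 6 assembly factors left was 187 and the ratio of subunits to them 11.6. This minimum leaves out no subunit and no gene of complexes II to V. The median subunit (2175) and the ratios 0.752 (core to accessory), 49.4 (highest to lowest) and 0.529 (to complexes II to V) therefore could not change. With the principal transcript, an alternative chosen after seeing the data, the medians were 3459 and 313, their ratio 11.0 and the ratio of core to accessory subunits 0.422. Of 18 motif alternatives, 3 moved by over 10 percentage points, namely YY1 upstream of the start (0%), and SP1 (34.1%) and CCAAT (17.1%) on the forward strand. The letters of NRF1, CREB and the E-box read the same on both strands, so their forward-strand shares could not move. Smaller in points but at least 1.5-fold were TATA (4.88%), ETS (7.32%) and ERR (0%) on the forward strand and NRF1 upstream (4.88%). No paired analysis was possible because the columns used carry no values per sample, and leaving out replicates and count models were not run for the same reason. Depth per library is unknown.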
